A study of Mus musculus with 6 samples.

Results

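Cxcl12, Cxcr4 and Ackr3 encode a chemokine and its receptors, and the files list them as CXCL12, CXCR4 and ACKR3. They are 3 of the 23282 gene rows counted in each RNA library and were picked by symbol. The group was chosen by the measured fall of Cxcl12 in these same libraries, so the values of the 3 genes in this contrast are given as a description without a test. Ink4a/Arf-/- mouse astrocytes, which lack a tumor suppressor locus, carried either the empty plasmid pcDNA3.1-puro (control, 3 libraries) or pcDNA3.1-JAG1-puro (JAG1-overexpressing, 3 libraries). JAG1 is a ligand of the NOTCH receptors, and in pcDNA3.1 plasmids the insert is driven by the CMV promoter. All 6 libraries share the Ink4a deletion and a culture medium with fetal bovine serum; the labels give the control libraries the genotype WT, read here as without JAG1. Sex and age of the source animals, and whether replicates stem from separate cultures, transfections or clones, are not given in the sources used here, so p-values measure only the spread between these samples, which may be technical. The libraries were sequenced from the 3' end of polyadenylated transcripts and held 20489062, 18889751 and 18952552 reads on genes in control and 20071276, 14341634 and 16442278 in JAG1-overexpressing astrocytes.

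CXCL12 is a secreted chemokine that binds heparan sulfate on the cell surface and draws cells along its gradient. CXCR4 is its G protein-coupled receptor and passes the signal to inhibitory G proteins, while ACKR3 binds the same ligand, recruits arrestins rather than activating classical G protein signaling, and takes CXCL12 up for degradation. In the brain, CXCL12 from meningeal, vascular and glial cells guides migrating neurons and interneurons, and in glioma the axis is known for its part in invasion and in homing to vessels.

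The overexpressed gene was read first as a check of the labels. Jag1 was at 8.99, 10.8 and 11.2 CPM (read counts relative to the size of the library, scaled with edgeR's TMM factors) in the control libraries and at 15.2, 13.6 and 13.8 CPM in the JAG1-overexpressing libraries, so that the groups did not overlap. The log2 fold change was 0.46 (standard error 0.11, adjusted p = 0.00446, edgeR's quasi-likelihood test), and whether reads of the plasmid were counted on this gene is not given in the sources used here. Of the 11712 genes with enough reads to be tested, 3211 (27.4%) were higher and 3247 (27.7%) lower with JAG1 at an adjusted p under 0.05, together 55.1%. A call in either direction was therefore common. The rise of Jag1 alone does not settle the labels, and each count of genes given here has to be read against these shares. On chromosome 19, 313 of 422 tested genes rose, with a median log2 fold change of 0.61, and on chromosome 15, 345 of 458 fell, with a median of −0.53.

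The stretches just upstream of Cxcl12 and Ackr3 are shown because these are the 2 genes of the 3 whose transcripts were lower in every JAG1-overexpressing library. Each is the 250 bases before the RefSeq start of the gene on GRCm38, the build named in the submitters' processing notes, written 5′ to 3′ on the strand of the gene, with the matches to the searched motifs in capitals. The first lies at chr6:117168285-117168534 and the second at chr1:90203730-90203979, both on the plus strand.
Cxcl12: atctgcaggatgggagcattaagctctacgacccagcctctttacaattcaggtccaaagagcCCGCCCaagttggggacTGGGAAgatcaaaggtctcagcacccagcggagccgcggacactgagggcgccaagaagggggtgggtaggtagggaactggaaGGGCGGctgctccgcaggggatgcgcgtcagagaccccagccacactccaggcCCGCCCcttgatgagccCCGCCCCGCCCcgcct
Ackr3: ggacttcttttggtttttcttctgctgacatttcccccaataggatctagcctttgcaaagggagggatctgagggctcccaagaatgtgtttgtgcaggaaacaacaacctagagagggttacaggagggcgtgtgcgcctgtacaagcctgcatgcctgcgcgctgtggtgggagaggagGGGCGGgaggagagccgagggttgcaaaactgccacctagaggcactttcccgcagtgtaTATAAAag

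Short motifs were searched on both strands: the RBPJ site TGGGAA, bound by the DNA-binding partner of NOTCH, the SMAD box CAGAC, the E-box CANNTG, the hypoxia response core ACGTG, the TATA box TATAAA and the GC box GGGCGG. The Cxcl12 stretch held 1 RBPJ site, which began 170 bases before the start, and 5 GC boxes, of which the last pair overlapped, and no TATA box. The Ackr3 stretch held 1 GC box and 1 TATA box and no RBPJ site. The same stretch of Cxcr4, on the minus strand at chr1:128592300-128592549, held 3 GC boxes, 2 overlapping matches to the TATA box and no RBPJ site. None of the 3 held an E-box, a SMAD box or the hypoxia core. Among 32851 mouse promoters of the same length, 21.6% held the RBPJ letters, 32.7% a GC box, 12.4% a TATA box, 66.2% an E-box, 42.2% a SMAD box and 16.6% the hypoxia core. These are matches of letters, and no binding was measured in these libraries. The GC content was 64.4% for Cxcl12, 61.2% for Cxcr4 and 54% for Ackr3, where the median promoter had 52.4%.

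Cxcl12 lies on the plus strand of chromosome 6, at chr6:117168535-117181368, and overlaps no other annotated gene. GENCODE lists 4 transcripts, 3 of them coding, and the coding ones end up to 6298 bp apart; the reads were counted per gene, so the isoforms cannot be told apart. Cxcl12 had 6162, 5268 and 5684 reads in the control libraries, or 304.3, 282.8 and 297.3 CPM. In the JAG1-overexpressing libraries it had 16, 10 and 0 reads, or 0.798, 0.688 and 0 CPM. All 3 control libraries were thus high and close to each other, all 3 JAG1-overexpressing libraries were near the limit of detection, and the groups did not overlap. Among all tested genes, 30.9% were likewise lower with no overlap between the groups.

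The mean level of Cxcl12 was 294.8 ± 10.95 CPM in control and 0.495 ± 0.432 CPM in JAG1-overexpressing astrocytes (SD, n = 3 each), a fitted log2 fold change of −9.16. The pooled reads, 17114 against 26, gave a ratio of 579.5 after scaling (exact 95% interval 395.4 to 887.4, counting error only). Of the tested genes, 95.1% had a lower level than Cxcl12 in control and 3.4% had a lower level in JAG1-overexpressing astrocytes. Its log2 fold change was the 9th lowest of all tested genes. Cxcl12 had enough reads to be tested through the control libraries alone, which set its direction. A total of 270 called genes were at least 8-fold lower and 25 at least 256-fold lower. Because Cxcl12 was chosen by its fall, its rank and these counts are a description and do not show that such a loss is rare.

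The residual Cxcl12 reads were not spread evenly over the JAG1-overexpressing libraries, and the fitted log2 fold change was −9.80 without replicate 1 and −8.60 without replicate 3 of that group. The exact 95% counting intervals were 0.456 to 1.30 CPM in replicate 1 and 0.33 to 1.27 CPM in replicate 2. In replicate 3, the count of 0 allows a level of up to 0.182 CPM when 3 reads are taken as the limit of detection. Its exact interval ran up to 0.224 CPM, and both bounds lie below the intervals of replicates 1 and 2. These intervals cover counting error only, since the reads carry PCR copies as well as molecules. In RNA from a whole culture, fewer cells that make a transcript and less of it per cell cannot be told apart.

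Ackr3 lies on the plus strand of chromosome 1, at chr1:90203980-90215724, and its 2 GENCODE transcripts end 2918 bp apart; no other gene overlaps it. This scavenging receptor had 408, 316 and 446 reads in the control libraries and 48, 23 and 37 in the JAG1-overexpressing libraries. The levels were 20.15, 16.97 and 23.33 CPM in control and 2.39, 1.58 and 2.25 CPM in JAG1-overexpressing astrocytes. The lowest control library was above the highest JAG1-overexpressing one, as for 30.9% of all tested genes, and reads remained in every library. The mean was 20.15 ± 3.183 CPM in control and 2.074 ± 0.4318 CPM after JAG1 overexpression (SD, n = 3 each). The means thus stood at a ratio of 9.71, with a fitted log2 fold change of −3.25, and the pooled reads, 1170 against 108, gave a ratio of 9.538 (exact 95% interval 7.826 to 11.73, counting error only). Ackr3 was above 47.7% of the tested genes in control and above 13.7% in JAG1-overexpressing astrocytes, and its log2 fold change was the 234th lowest.

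Cxcr4, the signaling receptor, lies on the minus strand at chr1:128588199-128592299. It had 4, 4 and 9 reads in the control libraries and 1, 3 and 10 in the JAG1-overexpressing libraries, or 0.198, 0.215 and 0.471 CPM and 0.0498, 0.206 and 0.607 CPM. The groups overlapped over nearly their whole range, and single libraries sat at or near the limit of 3 reads, which equals 0.148 to 0.206 CPM depending on the library. The means were 0.294 ± 0.153 and 0.288 ± 0.288 CPM (SD, n = 3 each). The pooled reads were 17 against 14, a ratio of 1.069 whose exact interval ran from 0.496 to 2.343, counting error only. The JAG1-overexpressing libraries spread more widely than that, from 0.0498 to 0.607 CPM, so a larger difference could go undetected at this depth. Cxcr4 did not pass the filter on low counts, which the other 2 genes of the group passed.

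**Figure D1:**
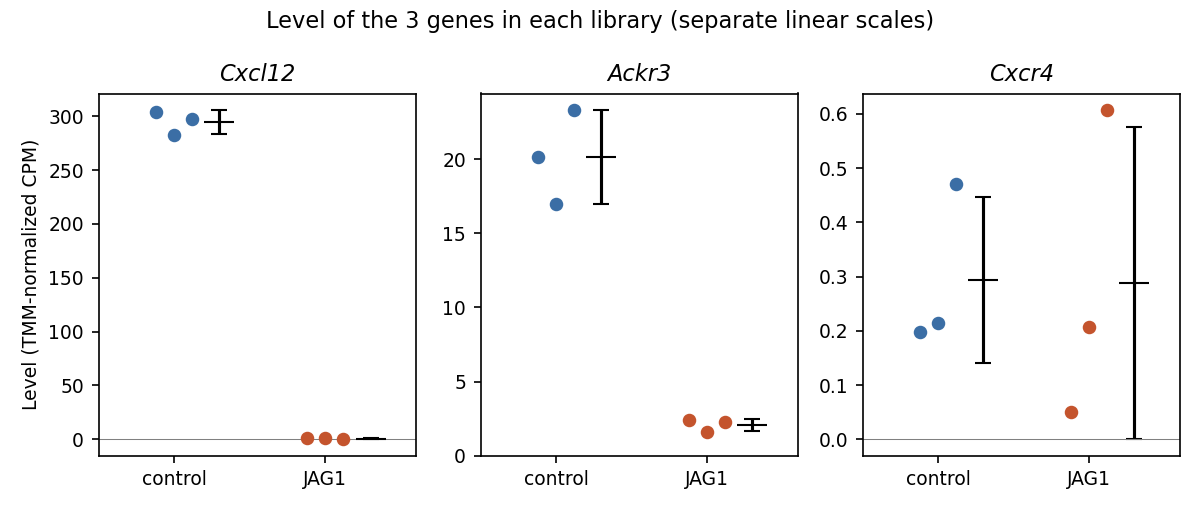
TMM-normalized CPM (y axis, a linear scale of its own in each panel) of Cxcl12, Cxcr4 and Ackr3 in the 3 control and 3 JAG1-overexpressing libraries; points are libraries, and the horizontal line and bar beside them give the mean and SD. For Cxcl12 and Ackr3, as for 30.9% of all tested genes, every control library lies above every JAG1-overexpressing library. The Cxcr4 points overlap at or below 0.607 CPM.

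As each transcript gives reads from its end only, CPM values were compared between the genes without a correction for length. In control astrocytes the order was Cxcl12, then Ackr3, then Cxcr4, with no overlap between neighbours. Per library, Cxcl12 had 15.1, 16.7 and 12.7 reads for each read of Ackr3 in control and 0.333, 0.435 and 0 in JAG1-overexpressing astrocytes. The order of ligand and scavenging receptor was thus turned over in all 3 JAG1-overexpressing libraries, where the lowest Ackr3 level, 1.58 CPM, was above the highest Cxcl12 level, 0.798 CPM. Cxcl12 and Cxcr4 overlapped there and did not differ beyond their spread. Ackr3 had more reads than Cxcr4 in every library, with 102, 79 and 49.6 reads per Cxcr4 read in control and 48, 7.67 and 3.7 in JAG1-overexpressing astrocytes. These ratios rest on only 4, 4 and 9 Cxcr4 reads in control and 1, 3 and 10 in JAG1-overexpressing astrocytes. With counts so near the limit of 3 reads, the size of the ratios is uncertain and no shift between the receptors was tested. The summed level of the 3 genes was 324.6, 300 and 321.1 CPM in control and 3.24, 2.477 and 2.855 CPM in JAG1-overexpressing astrocytes.

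The 4 tested genes whose pattern over the 6 libraries was most like that of Cxcl12 were Syt7, Unc5c, Ltc4s and Slc28a2b. Like Cxcl12, all 4 had enough reads to be tested through the control libraries alone, which set their direction. Likeness was the root mean square difference of log2 CPM (prior count 2) after each gene's mean was subtracted, and it was 0.954, 1.02, 1.08 and 1.25 for these genes. Syt7, a synaptotagmin of exocytosis on chromosome 19, had 1089, 936 and 1001 reads in control and 2, 0 and 0 in JAG1-overexpressing astrocytes. Unc5c, a netrin receptor, had 908, 818 and 898 reads against 3, 4 and 0. Ltc4s, which makes leukotriene C4, had 905, 840 and 832 reads against 6, 0 and 0. For all 3 genes the JAG1-overexpressing libraries were near or at 0, as for Cxcl12, but from a control level several times lower.

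For Ackr3 the closest patterns were those of Apol10b, Nbl1, Igfbp6, Plcb1 and Rnf122, with differences of 0.108, 0.109, 0.124, 0.153 and 0.166. Nbl1, a secreted antagonist of bone morphogenetic proteins, had 190, 168 and 189 reads in control and 20, 10 and 15 in JAG1-overexpressing astrocytes. Igfbp6, which binds insulin-like growth factor II, had 655, 610 and 690 reads against 89, 46 and 65. Plcb1, a phospholipase C downstream of G proteins, had 285, 245 and 249 reads against 31, 16 and 22. Each of these genes kept reads in every JAG1-overexpressing library, with the fewest in replicate 2, which also had the smallest library. Apol10b and Igfbp6 lie on chromosome 15. The 6 libraries leave few degrees of freedom beside the group difference, and all genes share the same libraries and depths.

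**Figure D2:**
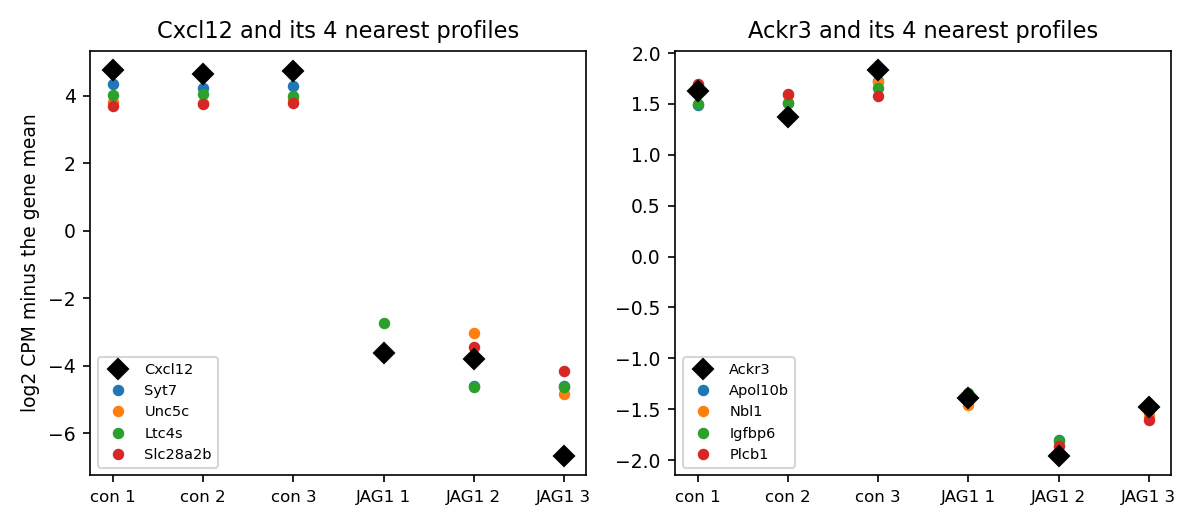
Log2 CPM minus each gene's own mean (y axis) in the 6 libraries (x axis) for Cxcl12 (left) and Ackr3 (right), drawn as black diamonds, and for the 4 most alike genes of each, drawn as circles. The points of each gene fall into a high control and a low JAG1-overexpressing set, and the spread between JAG1-overexpressing libraries is wider around Cxcl12, where reads were near 0.

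The chromosomal surroundings were read from the 3 nearest tested genes on each side. Around Cxcl12, 2 of 6 neighbours were higher and 4 lower, the nearest being 495 kb away. Rassf4, a RAS association domain protein on one flank, had 33, 20 and 26 reads in control against 3, 0 and 4, and Depp1, which lies within its span, had 6, 6 and 6 reads against 20, 30 and 16. Each passed the filter on low counts through 1 group alone, which set its direction. Zfp422 fell by 1.63 on the log2 scale (edgeR adjusted p = 5.86e-06), Zfp637 by 0.55 (edgeR adjusted p = 0.00464) and Zfp239 by 0.63 (edgeR adjusted p = 0.0323, a call lost under DESeq2), and Hnrnpf rose by 0.22 (edgeR adjusted p = 0.0278, a call lost without control replicate 1 or JAG1-overexpressing replicate 1 or 3). None of the 6 was lower by as much as Cxcl12. Counts from Rassf4 and Depp1, which overlap, are uncertain because the strand setting of the authors' counting is not given in the sources used here.

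Around Ackr3, 2 neighbours were higher, 1 of which (Rab17) passed the filter through the JAG1-overexpressing libraries alone, 2 lower and 2 not past the threshold. Col6a3, a chain of collagen VI, fell by 1.41 (edgeR adjusted p = 4.27e-05), and Agap1, a GTPase-activating protein 309 kb away, rose by 0.71 (edgeR adjusted p = 9.26e-06). Cops8, a subunit of the COP9 signalosome 387 kb away, had a log2 fold change of 0.06 (edgeR adjusted p = 0.41). Around Cxcr4, Ubxn4 was higher, Pfkfb2 lower and the other 4 not past the threshold. The neighbour 4933400F21Rik lies within the span of Agap1, and Yod1 within that of Pfkfb2. Their counts are uncertain for the same reason as those of Rassf4 and Depp1. The median log2 fold change was 0.02 over the 563 tested genes of chromosome 6 and −0.01 over the 670 of chromosome 1.

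**Figure D3:**
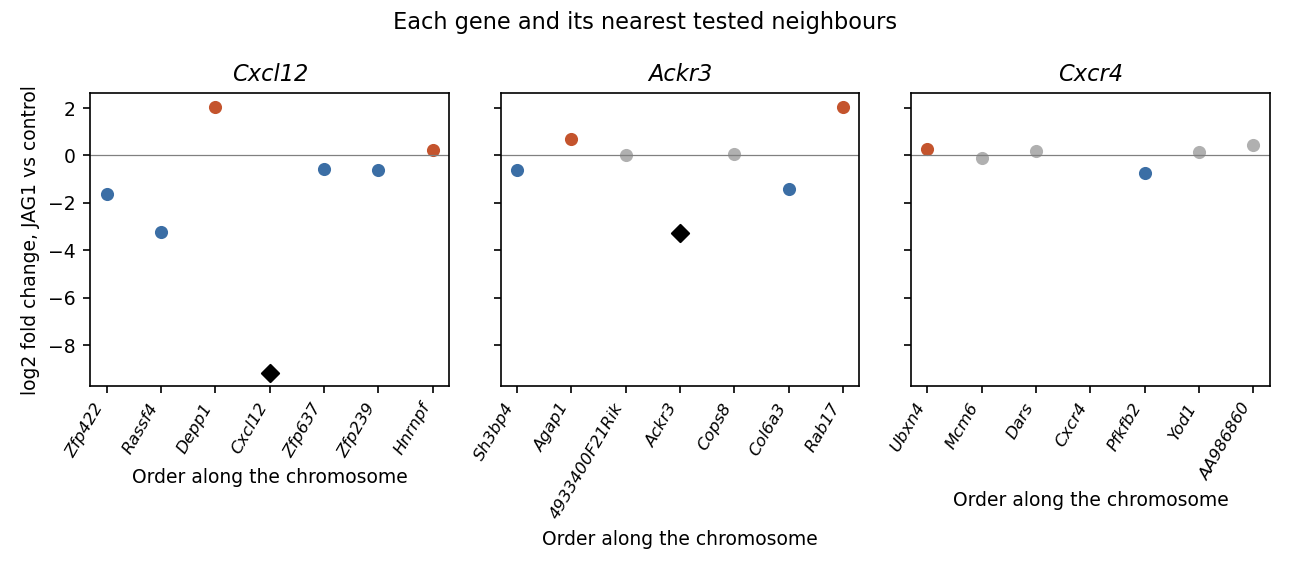
Log2 fold change of JAG1-overexpressing against control astrocytes (y axis) for each gene and its 3 nearest tested neighbours on either side, in their order along the chromosome (x axis). The black diamonds of Cxcl12, at −9.16, and Ackr3, at −3.25, lie below all of their neighbours (orange higher, blue lower, grey not past the threshold), and Cxcr4 was not tested and has no point.

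Around the 3 genes, 155 further genes were listed by their role in this axis and in the related chemokine family. Of these, 109 were tested, 38 (34.9%) rose and 36 (33%) fell, with a median log2 fold change of 0.03, against 27.4%, 27.7% and 0.00386 among all tested genes. Of the 109, 14 passed the filter on low counts through 1 group alone, which sets the direction of such a gene, and of the other 95, 32 rose and 29 fell. The counts are descriptions of lists written with earlier results of these data known.

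Other ligands were little changed or hardly detected. Mif, a cytokine that also binds CXCR4 and ACKR3, was at 235.5, 230.2 and 229.6 CPM in control and at 263.7, 255.2 and 277.3 CPM in JAG1-overexpressing astrocytes, a rise of 0.20 on the log2 scale (standard error 0.05, edgeR adjusted p = 0.00613). Hmgb1, which forms a complex with CXCL12, was not past the threshold. Cxcl11 and Adm had at most 5 reads in any library, and the opioid precursors Penk and Pdyn had 0 reads in all 6.

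Of 8 proteases that can cut CXCL12, 4 were tested and fell. For 3 of them, Mmp9, Mmp2 and Cpm, the filter on low counts was passed through the control libraries alone, so that their direction was set by how they came to be tested, and the count supports nothing. Mmp14, a membrane-bound matrix metalloproteinase, was at 484.4, 439.3 and 412 CPM in control and at 180.7, 158.7 and 161.4 CPM in JAG1-overexpressing astrocytes (log2 fold change −1.41, standard error 0.07, edgeR adjusted p = 2.86e-08). Mmp9 had 57, 56 and 58 reads against 2, 0 and 1, a pooled ratio of 50.2 (exact 95% interval 16.9 to 246, counting error only). Mmp2 had 66, 90 and 81 reads against 10, 10 and 7. The fourth was Cpm, carboxypeptidase M, which had 28, 27 and 22 reads against 4, 6 and 4 and lay below the level set for naming. Dpp4, the peptidase best known for removing the start of CXCL12, had 1 read in all 6 libraries together.

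Heparan sulfate holds CXCL12 at the cell surface, and of 20 genes that build or trim it, 13 were tested, 2 rose and 4 fell, with a median log2 fold change of 0.03. Of the 4, Sulf1 was tested through the control libraries alone, which set its direction. This extracellular sulfatase had 78, 67 and 64 reads in control and 1, 0 and 0 in JAG1-overexpressing astrocytes, a pooled ratio of 184 (exact 95% interval 32.7 to 7300, counting error only). Hs6st1, a 6-O-sulfotransferase, was at 72.44, 67.22 and 71.14 CPM against 19.39, 18.37 and 20.04 CPM (log2 fold change −1.87, edgeR adjusted p = 3.24e-09). Ext1, a polymerase of the chain, fell by 1.03 (edgeR adjusted p = 2.24e-07) and lies on chromosome 15, with its median of −0.53. The N-sulfotransferases Ndst1 and Ndst3 moved the other way and rose by 0.35 (edgeR adjusted p = 0.00131) and 0.89 (edgeR adjusted p = 0.00709).

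Downstream of the receptors, 36 genes of G proteins, kinases, arrestins, sorting factors and RGS proteins were listed. Of these, 29 were tested, 8 rose and 9 fell, or 8 and 8 without Gnao1, which was tested through the control libraries alone. Arrb1, an arrestin that binds activated receptors, had 74, 63 and 66 reads in control and 499, 335 and 357 in JAG1-overexpressing astrocytes. This was the largest rise named in the list, a log2 fold change of 2.73 (standard error 0.11, edgeR adjusted p = 4.54e-09), whereas its paralog Arrb2, added here after its value was seen, fell by 0.48 (edgeR adjusted p = 0.0284), a call lost under DESeq2. Rgs16, which speeds up the shut-off of G proteins, rose from 6.25 ± 0.966 to 30.1 ± 1.996 CPM (SD, n = 3 each; log2 fold change 2.27, edgeR adjusted p = 3.53e-08). Rgs14 of the same family rose by about 1 on that scale (edgeR adjusted p = 0.00781).

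Rgs2, also of this family, went the opposite way, from 421.9, 400.1 and 394.8 CPM to 105.8, 98.88 and 101.1 CPM, and fell by 1.99 on the log2 scale (edgeR adjusted p = 2.93e-10). Gnao1, an inhibitory G protein alpha subunit typical of neurons, had 125, 139 and 177 reads against 5, 1 and 4, its direction having been set by the filter. Gnb4, a beta subunit, fell by 1.47 (edgeR adjusted p = 8.30e-07). Gnai2, the abundant inhibitory alpha subunit and also added after its value was seen, rose by 0.15 (edgeR adjusted p = 0.0182), a call lost under upper-quartile scaling.

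Of 48 effectors of chemotaxis, 41 were tested, 17 rose and 12 fell, with a median log2 fold change of 0.11. Of these, Plcb4, Elmo1, Prex1 and Ptk2b were tested through 1 group alone, and of the other 37, 14 rose and 11 fell. Ptk2b, a calcium-sensitive kinase related to focal adhesion kinase, had 47, 27 and 50 reads in control against 4, 3 and 3. Plcb1 fell by 3.31 (edgeR adjusted p = 1.31e-08), and Tiam1, an activator of RAC, went from 29.2 to 6.74 CPM and fell by 2.11 (edgeR adjusted p = 2.03e-08). Jak2 rose from 16.9 to 41.1 CPM, by 1.29 (edgeR adjusted p = 2.49e-07), against the median of 0.61 on its chromosome 19, and Stat3, which JAK kinases activate, from 21.3 to 39.3 CPM, by 0.89 (edgeR adjusted p = 2.92e-06). Vav3, another activator of RAC, rose by 0.76 (edgeR adjusted p = 0.00615). Elmo1, an engulfment and motility factor below the level set for naming, had 1 read in the control libraries together and 53 in the JAG1-overexpressing ones.

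**Figure D4:**
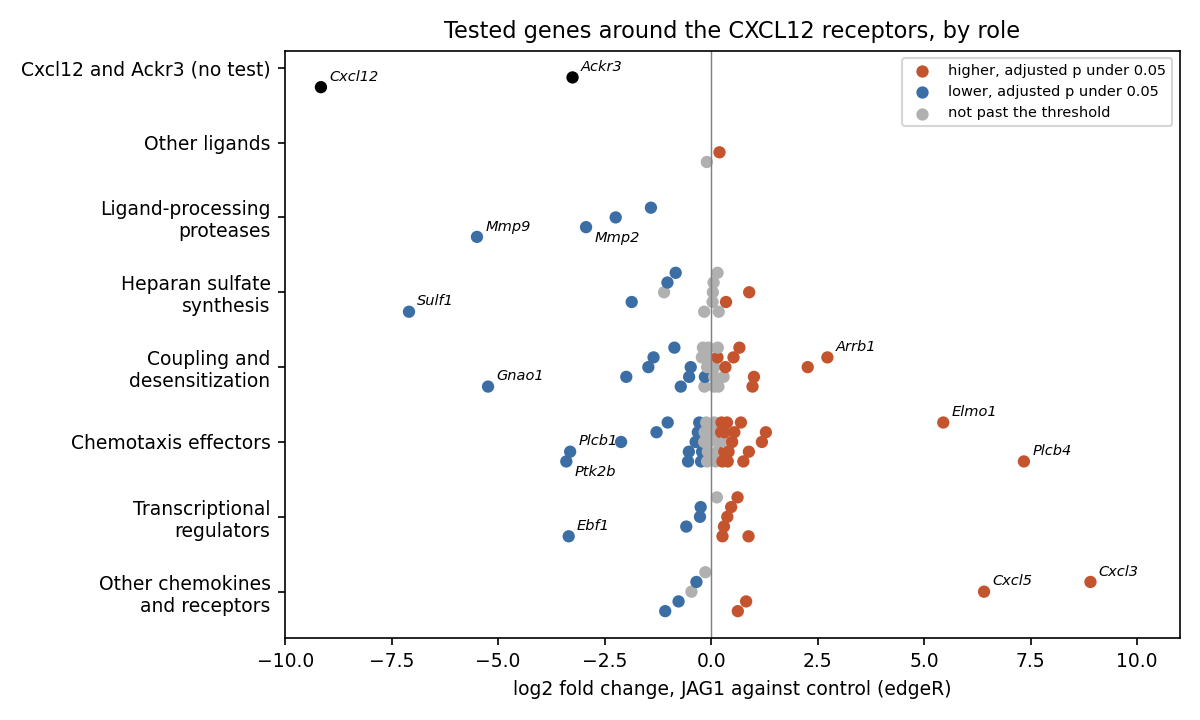
Log2 fold change of JAG1-overexpressing against control astrocytes (x axis) for the tested genes of each role (y axis), each point a gene, colored by whether it was higher, lower or not past an adjusted p of 0.05 in edgeR's quasi-likelihood test, with Cxcl12 and Ackr3 in black and without a test. Cxcl12 at −9.16 and Ackr3 at −3.25 lie on the lower side, and the coupling and effector lists spread to both sides.

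Among 14 genes known to regulate Cxcl12 or its receptors, 11 were tested, 6 rose and 4 fell. Ebf1, a transcription factor of B lymphoid and mesenchymal cells, was at 35.8, 46.55 and 47.29 CPM in control and at 4.84, 3.51 and 4.25 CPM in JAG1-overexpressing astrocytes, with no overlap (log2 fold change −3.34, standard error 0.14, edgeR adjusted p = 9.00e-09). Foxc1, a forkhead factor of cells rich in Cxcl12, fell by 0.58 (edgeR adjusted p = 1.39e-05) and Vhl, which targets hypoxia-inducible factors for degradation, by 0.26 (edgeR adjusted p = 0.0478), a call lost under most alternatives, DESeq2 among them. Cebpb rose by 0.88 (edgeR adjusted p = 0.00365), Nfkb1 by 0.62 (edgeR adjusted p = 0.00235) and Rela by 0.47 (edgeR adjusted p = 4.96e-05), which is below the median of 0.61 on its chromosome 19. Hif1a, added after its value was seen, rose by 0.38 (edgeR adjusted p = 0.000665).

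Of 24 other CXC and CX3C chemokines and receptors, including atypical ones, 9 were tested, 4 rose and 3 fell, and 10 had at most 3 reads in every library. Of the tested genes 5, with Cxcl3, Cxcl5 and Cxcl16 among them, passed the filter through 1 group alone, and of the other 4, 1 rose and 2 fell. Cxcl3, a neutrophil attractant that acts through CXCR2, had 0 reads in the control libraries and 57, 46 and 64 in the JAG1-overexpressing ones. It was at least 21.2-fold higher, taking 3 reads per control library as the limit. Cxcl5, another ligand of CXCR2, had 0, 0 and 1 reads in control against 43, 35 and 26, a pooled ratio of 118 (exact 95% interval 20.7 to 4710, counting error only). Cxcr2 itself rose from 2.90 to 4.47 CPM, by 0.63 (edgeR adjusted p = 0.00697), and Cxcl1, the most abundant gene of the list in control, fell by 0.35 (edgeR adjusted p = 0.00792). Cxcr5 fell by 0.76 (edgeR adjusted p = 0.000845), and Cxcl16 had 36, 23 and 36 reads in control against 25, 6 and 9. The JAG1-overexpressing levels of Cxcl3 and Cxcl5, at 3.30 and 2.04 CPM, were far below the control level of Cxcl12.

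The labelled cell type was checked against its markers. Of 16 astrocyte markers, Gfap, Aqp4 and Gjb6, which define mature astrocytes, had 0 reads in all 6 libraries, and the glutamate transporters Slc1a2 and Slc1a3 had at most 2 reads in any. These 5 were thus absent or nearly so in both groups, and in all 7 of the 16 had at most 3 reads in every library. Others were present, among them Aldh1l1 with 72, 46 and 56 reads in control and 16, 11 and 13 with JAG1. Glul was at 26.82 CPM in control and 15.25 CPM with JAG1. A total of 9 were tested, and 8 of them fell with JAG1, 4 of which passed the filter through the control libraries alone. Their summed level went from 341.8, 363.5 and 404.4 CPM to 136.1, 126 and 137.8 CPM. Gja1, a gap junction protein and the most abundant over the 6 libraries, fell from 151 to 96.7 CPM, and Sox9, a transcription factor of astrocytes and their precursors, which led in control and was added after its value was seen, was at 185.8, 180 and 176.7 CPM against 18.14, 19.13 and 16.64 CPM.

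Cxcl12 is also made by mural cells and fibroblasts. Of 10 mural cell markers, 4 were tested and all 4 fell, where 27.7% of all tested genes were lower. Of the 4, Anpep passed the filter through the control libraries alone. The summed level of the mural markers was 407.6, 403.4 and 391.4 CPM in control and 64.19, 71.7 and 64.08 CPM in JAG1-overexpressing astrocytes. Acta2, smooth muscle actin on chromosome 19 and the most abundant of them, was at 313.8, 313.6 and 302.9 CPM against 36.58, 41.08 and 40.7 CPM, and Pdgfrb, a receptor of pericytes, fell from 82.22 to 26.08 CPM and Des from 6.736 to 0.7668 CPM. Rgs5 and Kcnj8, which also mark pericytes, had 0 reads throughout, and Abcc9, Myh11, Notch3 and Vtn had too few reads to be tested. Of 12 fibroblast markers, 9 were tested, 1 rose and 6 fell, Dcn among them through the control libraries alone, with sums of 522.6, 535.7 and 576.8 CPM against 355.7, 352 and 317.1 CPM. Col1a1 was the most abundant and fell from 236 to 163.8 CPM, and Lum had 0 reads. Col1a2, the other chain of collagen I, was the 1 that rose, from 3.347 to 50.72 CPM (log2 fold change 3.92, edgeR adjusted p = 1.42e-09). Foxc1 stands both in this list and among the regulators, and Pdgfra both here and among oligodendrocyte lineage markers.

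Of 8 neuron markers, 3 were tested, 1 rose and 2 fell, with sums of 100.3, 107.8 and 110 CPM against 60.21, 58.83 and 61.77 CPM. Tubb3, the most abundant in control, fell from 78.15 to 8.402 CPM, Map2, the most abundant in JAG1-overexpressing astrocytes, rose from 25.08 to 51.31 CPM, and Snap25, Syt1 and Dcx were at 0. Stmn2, the other neuron marker that fell, was tested through the control libraries alone. Of 12 microglia markers, 4 were tested, and the 1 higher and 1 lower, Cx3cr1 and Tmem119, were each tested through 1 group alone. The 10 oligodendrocyte lineage markers summed to between 4.54 and 6.82 CPM, with Pdgfra the most abundant, 1 of 3 tested (Cnp, through the control libraries alone) lower and Olig1, Sox10, Cspg4, Mog and Mag at 0. The 10 endothelial markers summed to between 2.27 and 3.81 CPM in control and between 5.71 and 6.20 CPM in JAG1-overexpressing astrocytes, with 1 of 2 tested higher and Tek, Tie1, Vwf and Emcn at 0. Flt1, which rose from 1.304 to 4.526 CPM, was the most abundant with JAG1, and Esam, at 1.544 CPM, in control.

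The Y-linked transcripts moved with the group as well, and all 4 were higher in JAG1-overexpressing astrocytes. Ddx3y was at 104.3, 100.2 and 90.55 CPM in control and at 200.3, 200.2 and 191.5 CPM, Uty rose by 1.596 on the log2 scale, Eif2s3y by 1.35 and Kdm5d by 0.98, and Xist had 1, 1 and 7 reads in control and 0 in each JAG1-overexpressing library. The part of the markers and of the Y-linked transcripts in the low levels of Cxcl12 and Ackr3 was not tested. With 1 plasmid per group and no record of separate cultures in the sources used here, JAG1 and any other difference between the cell populations cannot be told apart.

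**Figure D5:**
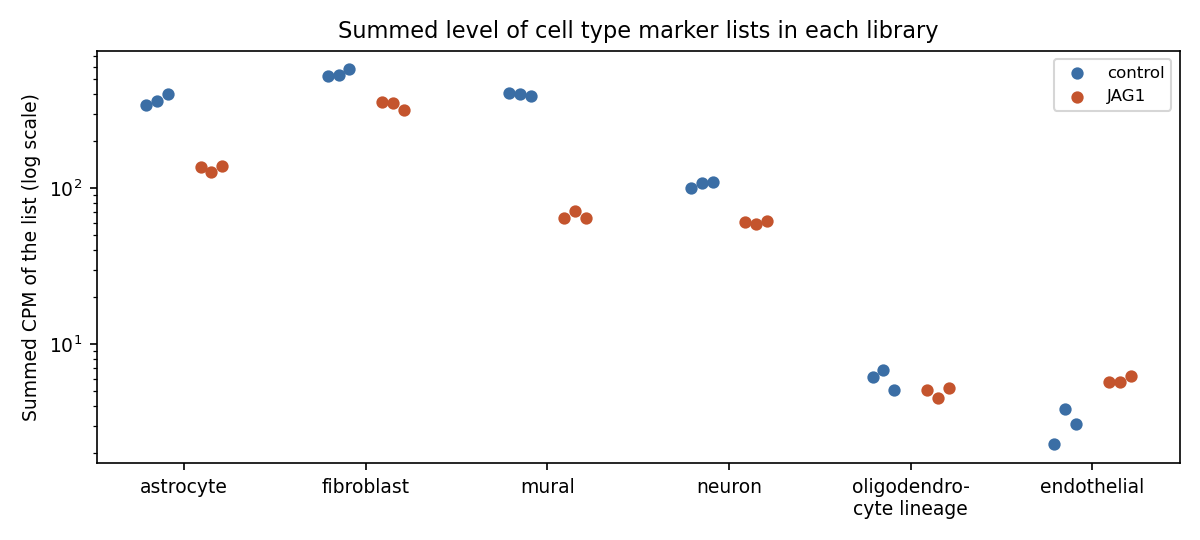
Summed TMM-normalized CPM (y axis, log scale) of 6 lists of cell type markers (x axis) in the control and JAG1-overexpressing libraries, each point a library. The astrocyte, fibroblast, mural and neuron sums are lower in every JAG1-overexpressing library, the endothelial sums are higher, and the oligodendrocyte lineage sums overlap.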

How the data were processed

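RNA of 6 libraries was prepared by the QuantSeq 3' method. The authors deposited, for each library, raw read counts per gene and log2 values of normalized counts; the submitters' processing notes name Bowtie2, bedtools and edgeR and the build GRCm38 (mm10), while versions, annotation and normalization are not given in the sources used here. Counts were analysed with edgeR 4.0.16 in R 4.3.3: filterByExpr with a minimum count of 10, which left 11712 genes, TMM scaling, the quasi-likelihood test between the groups, and Benjamini-Hochberg adjustment over all tested genes at a threshold of 0.05. A gene with 3 reads or fewer was taken as at the limit of detection. Symbols were matched to the RefSeq annotation of GRCm38.p6 (22059 by symbol, 1071 by synonym, 152 not matched), which also gave the promoter sequences; transcripts came from GENCODE M21. In a simulation at the depth of these libraries, with 198 genes changed by 1 on the log2 scale among 11586 tested, 88.9% were called. Of all its calls, 7.85% fell on genes left unchanged. Far fewer genes were changed there than the 55.1% called in the data, so these rates do not carry over to the calls given here.

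Genes were named by a rule: Jag1, for each role list the called genes that rose most (3) and fell most (3), if their mean was 1 CPM or more, the 5 genes most alike in pattern (1 of those of Cxcl12 and 1 marker are not reported here), the 3 nearest tested neighbours on each side, the most abundant and the absent markers, and the sex-linked transcripts. Genes given as added after their value was seen, and those given by their low counts or for passing the filter through 1 group, fall outside the rule. So do Hmgb1 and the markers Aldh1l1, Glul, Pdgfrb, Des and Col1a2, among others. The members and lists were chosen with earlier results of these data known. The counts of any 2 libraries differed by more than counting error allows, so none was a copy. Alternatives were DESeq2 1.42.0, library size or upper-quartile scaling, no filter or a mean of at least 10 counts, a replicate block, limma 3.58.1 on the deposited log2 values and leaving out each library.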

Additional observations from a re-analysis of the deposited data

How the results depend on the processing

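The values of Cxcl12, Ackr3 and Jag1 kept their direction, Jag1 its side of the threshold, and the counts of genes stayed within 1.5 times under DESeq2, library size or upper-quartile scaling, no filter, a mean of at least 10 counts, the replicate block or limma on the deposited log2 values, or with each library left out in turn. Over these settings without a library left out, the log2 fold change ran from −9.71 to −9.15 for Cxcl12, from −3.28 to −3.24 for Ackr3 and from 0.44 to 0.47 for Jag1, and 2930 to 3388 genes were higher and 2997 to 3498 lower. With a library left out, the ranges were −9.80 to −8.60, −3.38 to −3.11 and 0.37 to 0.52, and 2724 to 3256 genes higher and 2792 to 3344 lower; of the role lists, 33 to 41 genes rose and 31 to 35 fell. Which direction held more genes was not stable: 3323 were higher and 3131 lower under library size scaling, and in the role lists 34 rose and 38 fell under upper-quartile scaling and 36 and 38 without a filter. The highest adjusted p of Jag1 over all settings was 0.0253. In the main setting Cxcl12 was tested through the control libraries alone, which set its direction. The difference of Cxcr4 was −0.0106 to −0.00492 CPM over the scalings and filters. These settings reach it only through the scaling of the libraries, and the block not at all, so the narrow range shows little. With a library left out, the difference ran from −0.166 to 0.113 CPM and so had no stable sign. Its depth of 1 to 10 reads per library limits it, and limma on the deposited values gave none.

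The calls of 61 genes, most of them named in the text, were rerun under the same settings, as an addition chosen after the data were seen: 55 kept their call and direction in every setting that tested them, none reversed, and 6 lost the call in some. Of these genes, 12 passed the filter on low counts through 1 group alone, so that their direction was set in advance; of the other 49, 44 kept their call. Those that lost it were Vhl (10 of 13 settings, adjusted p up to 0.156), Zfp239 (5, without control replicates 1 and 3, JAG1 replicates 1 and 2, and under DESeq2), Cxcl16 (4, without control replicates 1 and 3 and JAG1 replicates 2 and 3), Gnai2 (4, without control replicates 2 and 3 and JAG1 replicate 1, and under upper-quartile scaling), Hnrnpf (3, without control replicate 1 and JAG1 replicates 1 and 3) and Arrb2 (3, without control replicate 1 and JAG1 replicate 2, and under DESeq2).

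Replicate numbers in the labels did not pair the samples: the deviations of same-numbered libraries correlated across genes at 0.148, 0.0614 and 0.119, each library correlating best with its own number, which is a hint from the data and not from the design. With the replicate block, 3380 genes were higher and 3331 lower, and the log2 fold change was −9.17 for Cxcl12, −3.27 for Ackr3 and 0.46 for Jag1 (adjusted p = 0.00535, edgeR); in the role lists 36 genes rose and 34 fell.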

Other observations

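A pair of chemokines lay below the filter on low counts. Ppbp, a platelet chemokine, had 13, 9 and 9 reads in control and 0 in each JAG1-overexpressing library. Cxcl10, an interferon-induced ligand of CXCR3, had 6, 16 and 15 reads in control and 3, 5 and 1 in JAG1-overexpressing astrocytes, but once scaled the groups overlapped, control replicate 1 being at 0.296 CPM and JAG1-overexpressing replicate 2 at 0.344 CPM. Neither was tested, and both were singled out after their values were seen.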
